A study of Homo sapiens with 15 samples.

Results

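The earliest changes after induction of MSX1 in the established human neuroblastoma line IMR32 were described from 6 of the 15 expression arrays of the series, namely the 3 titled t = 8 and the 3 titled t = 0, across all genes. The cells carried a transfected MSX1 gene whose expression is switched on by doxycycline. The t = 0 group had received no induction, and the t = 8 group had been given doxycycline. The series also held 3 further groups of 3 arrays each, induced cells at t = 24 and t = 48 and control cells kept without doxycycline to t = 48. They were used for the later course of the early genes. They also entered the limma fit, so each SE and adjusted p at t = 8 rests on the scatter within the groups of all 15 arrays. No unit of time stands in the labels. Nothing in them says that the replicates came from separate cultures or that more than 1 transfected line was used. A p-value here thus reflects only how far the 15 arrays scatter within their groups, and that scatter may be technical. No control cells at t = 8 and no cells without the construct were analysed here, so time in culture, doxycycline itself and MSX1 cannot be told apart in the comparison of t = 8 with t = 0. In bulk RNA, fewer cells of a type and less RNA per cell cannot be told apart either.

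MSX1 encodes a homeodomain transcription factor, known mainly as a repressor, that acts at the border of the neural plate and in the neural crest, the embryonic source of the sympathetic lineage from which neuroblastoma arises. In such precursors the Notch pathway, through repressors of the HES and HEY families, holds back proneural basic helix-loop-helix factors, which drive neuronal differentiation. BMP and Wnt signals pattern the same cells, and both are limited by secreted antagonists.

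Values are MAS5 signals on a linear scale, each array scaled by the authors to the same trimmed mean, and differences are on the scale of log2(signal + 5.16). The median signal of the 6 arrays lay between 18.1 and 22.6. RNA integrity, read as the 3'/5' signal ratio of control transcripts, was 0.991 to 1.09 for GAPDH and 1.18 to 1.39 for ACTB. The lower quartile of signal was 6.4 on t = 0 replicate 2 and 6 on t = 8 replicate 1, and 4.4 to 5 on the other 4. The control probe set for the 3' part of 18S ribosomal RNA read 646.5 on t = 0 replicate 3 and 86.2 to 148.5 on the other 5.

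MSX1 itself read 116, 122 and 95.5 at t = 0 and 184, 158 and 140.1 at t = 8 on its brighter probe set. Its signals did not overlap between the groups, but the log2 difference of 0.51 (SE 0.15) did not pass the threshold in limma (adjusted p = 0.128). On the other kept MSX1 probe set the mean signal was 30.4 at t = 0 and 23.2 at t = 8. The brighter probe set later averaged 165 ± 20.7 (SD, n = 3) at t = 24. At t = 48 its mean was 83.2 ± 14.7 with doxycycline and 50.7 ± 4.52 without it. Both means at t = 48 lay below the t = 0 mean of 111, and the mean with doxycycline was the higher of them. The cause of the lower MSX1 signal at t = 48 was not tested. Which part of the MSX1 transcript the construct carries is not stated in the labels, so whether these probe sets read the construct was not tested. MYCN, the oncogene amplified in this line, read 5203 ± 319 (SD, n = 3) at t = 0 and 4540 ± 181 at t = 8 (log2 difference -0.20, adjusted p = 0.405).

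By t = 8 HEY1, NOG, SFRP1, SNAI2, TIMP3 and the cell cycle inhibitor gene CDKN1C were higher, and LMO4, CXCR4, ADRA2A and the proneural factor gene NEUROG2 were lower. The call of NEUROG2 was among the less stable ones, being lost in 10 of 23 alternative analyses. Of 12880 genes tested, 270 (2.1 percent) passed an adjusted p of 0.05 in limma, 142 higher (1.1 percent of the genes tested) and 128 lower (0.994 percent). The difference reached 2-fold in 39 of the higher and 13 of the lower genes, and 4-fold in 3 and 0. The median log2 change was 0.72 among the higher genes and -0.62 among the lower ones, against 0.0055 over all genes tested. The signals of t = 8 and t = 0 did not overlap in any of the 270 genes, against 14.3 percent of all genes tested whose groups did not overlap. Lack of overlap was also required of the largest changes named below, so it adds no evidence for a called gene. A fit of these 6 arrays alone, which has fewer degrees of freedom, called 52 genes, 50 of them among the 270. Leaving out t = 8 replicate 1, t = 0 replicate 1 or t = 0 replicate 3 gave 173, 174 and 179 genes. Every count of called list members below is to be read beside the 1.1 percent higher and 0.994 percent lower over all genes. All lists were drawn up with earlier results of these data known.

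**Figure D1:**
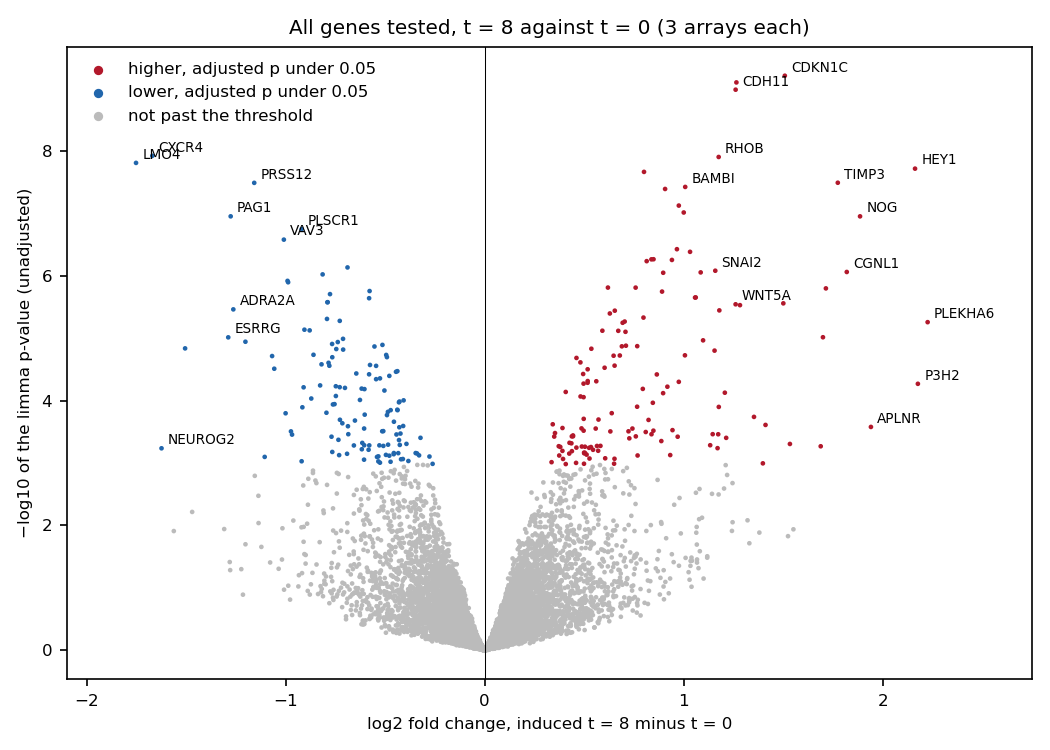
Log2 fold change of each of the 12880 genes at t = 8 against t = 0 (x axis) and the -log10 of the unadjusted limma p (y axis), with the 142 higher and 128 lower genes in colour. HEY1, PLEKHA6 and P3H2 lie farthest to the right and LMO4, CXCR4 and NEUROG2 farthest to the left.

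The strongest rise among Notch genes was that of HEY1, a repressor that Notch signalling switches on. Its signals were 38.5, 57.6 and 42.3 at t = 0 and 274, 196 and 203 at t = 8. The lowest t = 8 signal was 3.4-fold above the highest t = 0 signal, and the log2 fold change was 2.16 (SE 0.17, adjusted p = 3.49e-05). HEY1 was 1 of 7 measured HES and HEY family genes and the only one called. HES1, named here after its values were seen, had mean signals of 10.7 ± 7.10 and 29.3 ± 3.30 (SD, n = 3) and missed the threshold (log2 difference 1.25, adjusted p = 0.0799). Of 25 measured Notch receptors, ligands and cofactors, 2 rose and 0 fell, with a list median of -0.03. Both that rose encode mastermind co-activators, which join the Notch complex on DNA. MAML2 read 35.5, 19.9 and 28.2 at t = 0 and 50.9, 73.1 and 50 at t = 8 (log2 change 0.94, adjusted p = 0.0228), and MAML3 read 157, 158 and 162 at t = 0 and 215, 222 and 227 at t = 8 (log2 change 0.46, adjusted p = 0.00307). The list follows genes already known from this study, so its direction is not independent evidence. Of the 6 analyses that each left out 1 array, the call was lost for MAML2 in 3 (adjusted p up to 0.0958, without t = 8 replicate 2).

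Among BMP and TGF-beta genes, a BMP antagonist, a decoy receptor and an ID gene rose, and a TGF-beta ligand and a BMP signal transducer fell. No BMP ligand was called. NOG, which encodes the secreted BMP antagonist noggin, read 3.2, 0.9 and 3.4 at t = 0 and 20.1, 25.2 and 23.4 at t = 8. All 3 t = 0 signals were below the lower quartile of their arrays, and the log2 fold change of 1.89 (SE 0.17, adjusted p = 9e-05) ran from 0.67 to 2.86 with offsets of 32 and 1. BAMBI, a decoy receptor that BMP signals induce, read 355, 358 and 332 at t = 0 and 757, 665 and 698 at t = 8, a change of 1.01 (SE 0.08, adjusted p = 4.37e-05) with no overlap. ID2, an inhibitor of basic helix-loop-helix factors, rose by 0.37 (adjusted p = 0.0324) with signals of 707, 758 and 664 at t = 0 and 912, 888 and 958 at t = 8. The 9 measured ID genes and inhibitory SMADs held these 2 rises and 0 falls (median 0.16), and the 8 measured BMP antagonists held NOG alone (median 0.08). Of 16 measured BMP and TGF-beta ligands and receptors, only TGFB2 was called. It read 174, 172 and 129 at t = 0 and 86.5, 99.7 and 92.3 at t = 8 (log2 change -0.73, adjusted p = 0.00674). SMAD9, a BMP-activated SMAD named for its course over time after its values were seen, read 1304, 1448 and 1409 at t = 0 and 895, 890.1 and 993 at t = 8, a fall (log2 change -0.58, adjusted p = 0.000719). Leaving out single arrays ended the call of ID2 in 5 (adjusted p up to 0.134, without t = 0 replicate 3) of 6 cases.

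Wnt antagonists moved both ways. SFRP1, a secreted Wnt-binding protein, read 403, 446 and 341 at t = 0 and 1003, 800.4 and 707 at t = 8, and rose by 1.06 (SE 0.13, adjusted p = 0.000719). FRZB, a related secreted protein, read 96.6, 101 and 114 at t = 0 and 60.7, 51.3 and 61.8 at t = 8, and fell by 0.79 (adjusted p = 0.00122). The list of 6 measured antagonists, which also follows genes known from this study, thus held 1 rise and 1 fall (median 0.09). WNT5A, the ligand best known for signalling without beta-catenin, read 71.2, 59.5 and 79.9 at t = 0 and 161, 195 and 169 at t = 8, and its groups did not overlap (log2 change 1.26, adjusted p = 0.00082). The Wnt receptor gene FZD7, picked after its values were seen, read 65.6, 65.3 and 63.4 at t = 0 and 120.0, 115 and 115 at t = 8 (log2 change 0.80, adjusted p = 3.49e-05). None of 6 measured Wnt target genes was called by limma, and at an unadjusted p under 0.05 there were 0 of the 6, where 9.9 percent of all genes tested lay under it. Their log2 differences lay between -0.37 and 0.08. TCF7L2, a nuclear effector of the pathway, rose on the probe set used (log2 change 0.52, adjusted p = 0.00418), while its other kept probe sets included 1 that read -0.17.

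Of 12 measured neural crest transcription factors, 4 rose and 0 fell, where 1.1 percent of all genes rose and 0.994 percent fell. The list median was 0.36 against 0.0055 over all genes. This list too was drawn up with earlier results of these data known, so its direction is not independent evidence. SNAI2, a zinc finger repressor of epithelial genes, read 467, 516 and 429 at t = 0 and 1162, 960.4 and 1049.5 at t = 8, so that the lowest t = 8 array was well above the highest t = 0 array (log2 change 1.16, SE 0.13, adjusted p = 0.000398). SOX9, which specifies crest and cartilage cells, read 194, 202 and 206 at t = 0 and 349, 366 and 315 at t = 8 (log2 change 0.76, adjusted p = 0.000586). FOXD1, the forkhead member of the list, rose by 0.50 (adjusted p = 0.00618). ETS1 rose by 0.85 (adjusted p = 0.0229) on the probe set used, but its other kept probe sets read -0.01 and -0.03. Of 8 measured MSX and DLX homeobox genes, 2 rose and 0 fell (median 0.22). DLX5 read 71.2, 56.5 and 59.9 at t = 0 and 112, 94 and 110.1 at t = 8 (log2 change 0.71, adjusted p = 0.00167). MSX2, the closest relative of MSX1, read 24.5, 27.7 and 29 at t = 0 and 42.6, 59.4 and 36.6 at t = 8 (log2 change 0.65, adjusted p = 0.0493), just inside the threshold, and lost its call in 17 of 23 alternative analyses. Leaving out single arrays ended calls, of 6 cases each, for ETS1 in 4 (adjusted p up to 0.0908, without t = 8 replicate 2) and MSX2 in 5 (adjusted p up to 0.182, without t = 0 replicate 1).

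Regulators of the adrenergic neuroblastoma state split. Of 19 measured, 2 rose and 4 fell (median -0.13). HAND1, a basic helix-loop-helix factor of the sympathetic lineage, read 1173, 1076 and 1363 at t = 0 and 2169.6, 2171 and 2145 at t = 8, and the t = 8 arrays agreed closely with each other (log2 change 0.85, SE 0.09, adjusted p = 0.000312). PHOX2A, a homeodomain factor of noradrenergic neurons, rose by 0.38 (adjusted p = 0.0327). The transcriptional cofactor EYA1 read 950.0, 983 and 1021 at t = 0 and 473, 621 and 621 at t = 8 and fell by 0.79 (adjusted p = 0.000795). SIX3, a homeobox gene, read 145, 151 and 162 at t = 0 and 77.1, 68.3 and 80.4 at t = 8 (log2 change -0.97, adjusted p = 0.0229). The chromatin organiser SATB1 and the homeobox gene MEIS1 fell by 0.51 and 0.44 (adjusted p = 0.0229 and 0.0129). Leaving out single arrays ended calls, of 6 cases each, for PHOX2A in 5 (adjusted p up to 0.121, without t = 0 replicate 2), SIX3 in 6 (adjusted p up to 0.0958, without t = 8 replicate 2), SATB1 in 6 (adjusted p up to 0.0878, without t = 8 replicate 1) and MEIS1 in 3 (adjusted p up to 0.0601, without t = 8 replicate 1).

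**Figure D2:**
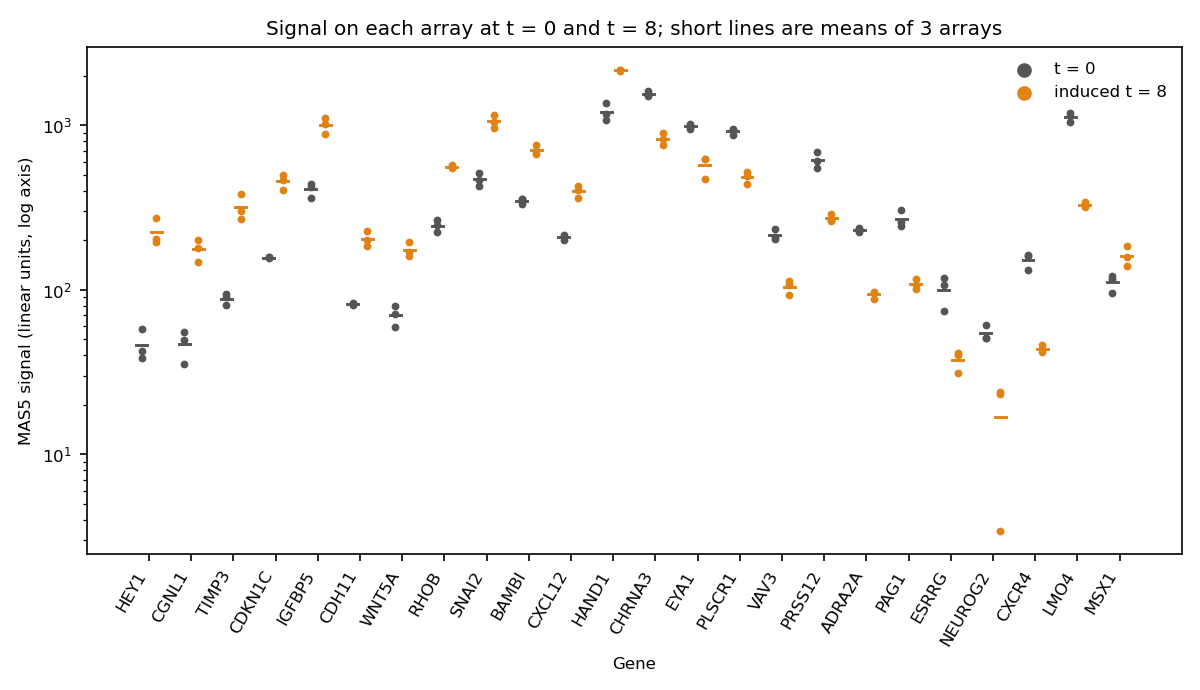
MAS5 signal on a log axis of 24 named genes on each of the 3 t = 0 and 3 t = 8 arrays, 1 point an array. For every gene shown the points of the 2 groups do not overlap, which holds for all 270 called genes. MSX1 is shown although its difference did not pass the threshold.

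LMO4, which had the largest fall on the log2 scale used, encodes a LIM-only adaptor of transcription complexes in neural and epithelial cells. It read 1136, 1050.0 and 1182 at t = 0 and 332, 340.0 and 317 at t = 8, so that the groups were at least 3.09-fold apart (log2 change -1.75, SE 0.14, adjusted p = 3.34e-05). At an offset of 1, NEUROG2 and SPDEF fell further (-1.99 and -1.85, against -1.76). LMO4 was the only gene called among 10 measured LIM-only genes and their cofactors. Of 15 measured proneural and related factors, 3 fell and 0 rose (median -0.03), on a list that follows genes known from this study. NEUROG2, a proneural factor that starts neuronal differentiation, read 50.8, 51.1 and 60.8 at t = 0 and 3.4, 23.3 and 24 at t = 8. Its t = 8 signals were all lower but spread widely, with replicate 1 far below the others (log2 change -1.62, SE 0.35, adjusted p = 0.0337), and the call was lost in 10 of 23 alternatives. EBF3, which acts downstream of proneural factors, read 126, 123 and 153 at t = 0 and 73.6, 71.7 and 84.1 at t = 8 (log2 change -0.77, adjusted p = 0.00234). NHLH2, a neuronal basic helix-loop-helix factor, read 1282, 1133 and 1161 at t = 0 and 750.0, 896 and 909 at t = 8 (log2 change -0.49, adjusted p = 0.0136). Of 31 measured genes of neuronal differentiation, 1, the synaptic vesicle gene SYT1, was called (log2 change -0.44, adjusted p = 0.0129), and 7 had an unadjusted p under 0.05, 4 higher and 3 lower. The list median was -0.0037. Leaving out single arrays ended calls, of 6 cases each, for NEUROG2 in 3 (adjusted p up to 0.116, without t = 0 replicate 3), NHLH2 in 2 (adjusted p up to 0.0721, without t = 0 replicate 1) and SYT1 in 2 (adjusted p up to 0.0642, without t = 0 replicate 1).

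Cell cycle inhibitors and growth arrest genes held 3 rises and 0 falls among 12 measured (median 0.13). CDKN1C, which encodes the CDK inhibitor p57, read 158, 157 and 155 at t = 0 and 464, 502 and 405 at t = 8. The t = 0 signals were nearly equal and the lowest t = 8 signal was 2.57-fold above the highest of them (log2 change 1.51, SE 0.09, adjusted p = 4.49e-06). GADD45G, a stress and growth arrest gene, read 92.5, 106 and 114 at t = 0 and 185, 208 and 237 at t = 8 (log2 change 0.98, adjusted p = 0.00591), and GAS1 rose by 0.50 (adjusted p = 0.0382). None of 30 measured G1-S and replication genes and none of 32 measured G2 and mitosis genes was called by limma, and at an unadjusted p under 0.05 they held 2 and 1, against 9.9 percent over all genes. The mitotic genes lay between -0.23 and 0.18. The G1 kinase gene CDK6 and the phosphatase gene CDC25A, outside those lists and picked after their values were seen, fell by 0.58 and 0.53 (adjusted p = 0.000624 and 0.0054). With the mean of all kept probe sets per gene, CDC25A changed by only -0.19 and was not called (limma adjusted p = 0.601), while CDK6 kept its call. A limma fit of the 6 arrays alone called neither CDK6 (adjusted p = 0.0624) nor CDC25A (adjusted p = 0.082). With 1 array left out, the call was lost for GAS1 in 5 (adjusted p up to 0.158, without t = 8 replicate 2).

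Chemokine, peptide and amine signalling genes moved in both directions, 3 higher and 3 lower of 18 measured (median 0.09). CXCR4, the receptor for the chemokine CXCL12, read 159.7, 131 and 163 at t = 0 and 41.7, 43.6 and 46.3 at t = 8. The groups were at least 2.83-fold apart (log2 change -1.67, SE 0.13, adjusted p = 3.22e-05). The ligand gene CXCL12 rose, with 199.8, 211 and 216 at t = 0 and 359.6, 402 and 430.2 at t = 8 (log2 change 0.91, SE 0.08, adjusted p = 4.37e-05). ADRA2A, an adrenergic receptor that dampens catecholamine release, read 235, 224 and 237 at t = 0 and 88.1, 97 and 95.9 at t = 8, again without overlap (log2 change -1.26, adjusted p = 0.000947). The serotonin-gated channel gene HTR3A rose by 0.62 and the lysophosphatidic acid receptor gene LPAR1 fell by 0.53 (adjusted p = 0.000586 and 0.0406). The apelin receptor gene APLNR read 6.1, 7.5 and 3 at t = 0 and 58.5, 19.9 and 36.1 at t = 8, and its log2 change of 1.94 (adjusted p = 0.0211) ran from 0.87 to 2.53 with offsets of 32 and 1. CHRNA3, a nicotinic receptor subunit of autonomic neurons, read 1505, 1626 and 1528 at t = 0 and 830.0, 760.3 and 894 at t = 8 (log2 change -0.91, adjusted p = 0.00164). With GABRA5 (log2 change -0.35, adjusted p = 0.0382) it made 2 falls and 0 rises among 15 measured neurotransmitter receptors. With 1 array left out, calls were lost, of 6 cases each, for APLNR in 4 (adjusted p up to 0.0898, without t = 8 replicate 1), GABRA5 in 5 (adjusted p up to 0.152, without t = 0 replicate 3) and LPAR1 in 5 (adjusted p up to 0.157, without t = 8 replicate 1).

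Axon guidance genes also split, 3 higher and 3 lower of 35 measured (median -0.11). The rises were in receptors and a semaphorin, and the falls in Slit ligands and a Slit receptor. NRP2, a semaphorin and VEGF co-receptor, read 72.1, 82.1 and 106 at t = 0 and 167, 199 and 187 at t = 8 (log2 change 1.06, adjusted p = 0.000719). The plexin gene PLXNA2 and SEMA5B rose by 0.90 and 1.35 (adjusted p = 0.00782 and 0.0157). SLIT3 read 296, 338 and 282 at t = 0 and 197, 192 and 168 at t = 8 (log2 change -0.70, adjusted p = 0.00682), and SLIT2 fell by 0.73 (adjusted p = 0.0172). ROBO1, a receptor for Slit proteins, read 924, 755 and 926 at t = 0 and 644, 660.2 and 617 at t = 8 (log2 change -0.43, adjusted p = 0.0281). With 1 array left out, calls were lost, of 6 cases each, for SEMA5B in 3 (adjusted p up to 0.0771, without t = 0 replicate 1), SLIT2 in 2 (adjusted p up to 0.0766, without t = 8 replicate 3) and ROBO1 in 5 (adjusted p up to 0.118, without t = 0 replicate 1).

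Among adhesion genes, 2 of 20 measured cell junction scaffolds rose and 0 fell (median 0.08). CGNL1, the junction protein paracingulin, read 35.1, 55.1 and 49.3 at t = 0 and 201, 181 and 147 at t = 8 (log2 change 1.82, SE 0.20, adjusted p = 0.000398). PLEKHA6 read 11.2, 1.7 and 1.4 at t = 0 and 35.3, 35.8 and 40.3 at t = 8, with log2 changes of 0.92 to 3.15 at offsets of 32 and 1 around the value of 2.23 (adjusted p = 0.0013). Cadherins and protocadherins held 2 rises and 2 falls of 18 measured (median -0.16). CDH11, the mesenchymal cadherin, read 81.3, 82.3 and 82.6 at t = 0 and 186, 229 and 199.6 at t = 8, the t = 0 arrays being nearly equal (log2 change 1.26, SE 0.08, adjusted p = 4.49e-06). PCDH19, a neural protocadherin, read 89.2, 59.6 and 71.6 at t = 0 and 20.4, 36.9 and 30.7 at t = 8 (log2 change -1.20, adjusted p = 0.00222). PCDH8 rose by 1.16 and CDH10 fell by 0.50 (adjusted p = 0.00261 and 0.00727). Of 11 measured integrins, ITGB5 (1.21) and ITGA6 (1.18) rose and ITGA1 fell by 0.51 (list median 0.25). With 1 array left out, these calls were lost, of 6 cases each, for ITGB5 in 3 (adjusted p up to 0.107, without t = 8 replicate 1), ITGA6 in 2 (adjusted p up to 0.0565, without t = 8 replicate 3) and ITGA1 in 3 (adjusted p up to 0.104, without t = 0 replicate 1).

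Matrix genes and protease inhibitors held 5 rises and 1 fall of 35 measured (median 0.15). TIMP3, an inhibitor of matrix metalloproteinases, read 90.5, 80.7 and 93.6 at t = 0 and 299.5, 270.0 and 382 at t = 8, a change of 1.77 (SE 0.15, adjusted p = 4.19e-05) with the groups at least 2.88-fold apart. P3H2, a collagen prolyl hydroxylase, read 4.3, 1.9 and 1.2 at t = 0 and 29.1, 18.1 and 44.1 at t = 8. Its t = 0 signals were at the bottom of the range, and the log2 change of 2.18 (adjusted p = 0.00618) ran from 0.84 to 3.19 with offsets of 32 and 1. The fibrillar collagen genes COL1A1 and COL5A1 rose by 0.72 and 0.50, and the collagen chaperone gene SERPINH1 by 0.34 (adjusted p = 0.0229, 0.0381 and 0.0474). The lysyl hydroxylase gene PLOD2 read 393, 361 and 401 at t = 0 and 231, 251 and 229 at t = 8, a fall (log2 change -0.69, adjusted p = 0.000379). Outside the list, the transmembrane collagen gene COL13A1 read 137, 141 and 147 at t = 0 and 354, 354 and 334 at t = 8 (log2 change 1.26, SE 0.08, adjusted p = 4.49e-06), and IGFBP5, a secreted binder of insulin-like growth factors, read 424, 360.1 and 442 at t = 0 and 882, 1018 and 1107 at t = 8 (log2 change 1.28, adjusted p = 0.000828). With 1 array left out, calls were lost, of 6 cases each, for COL1A1 in 4 (adjusted p up to 0.0941, without t = 0 replicate 2), COL5A1 in 4 (adjusted p up to 0.158, without t = 8 replicate 2) and SERPINH1 in 6 (adjusted p up to 0.153, without t = 0 replicate 2).

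**Figure D3:**
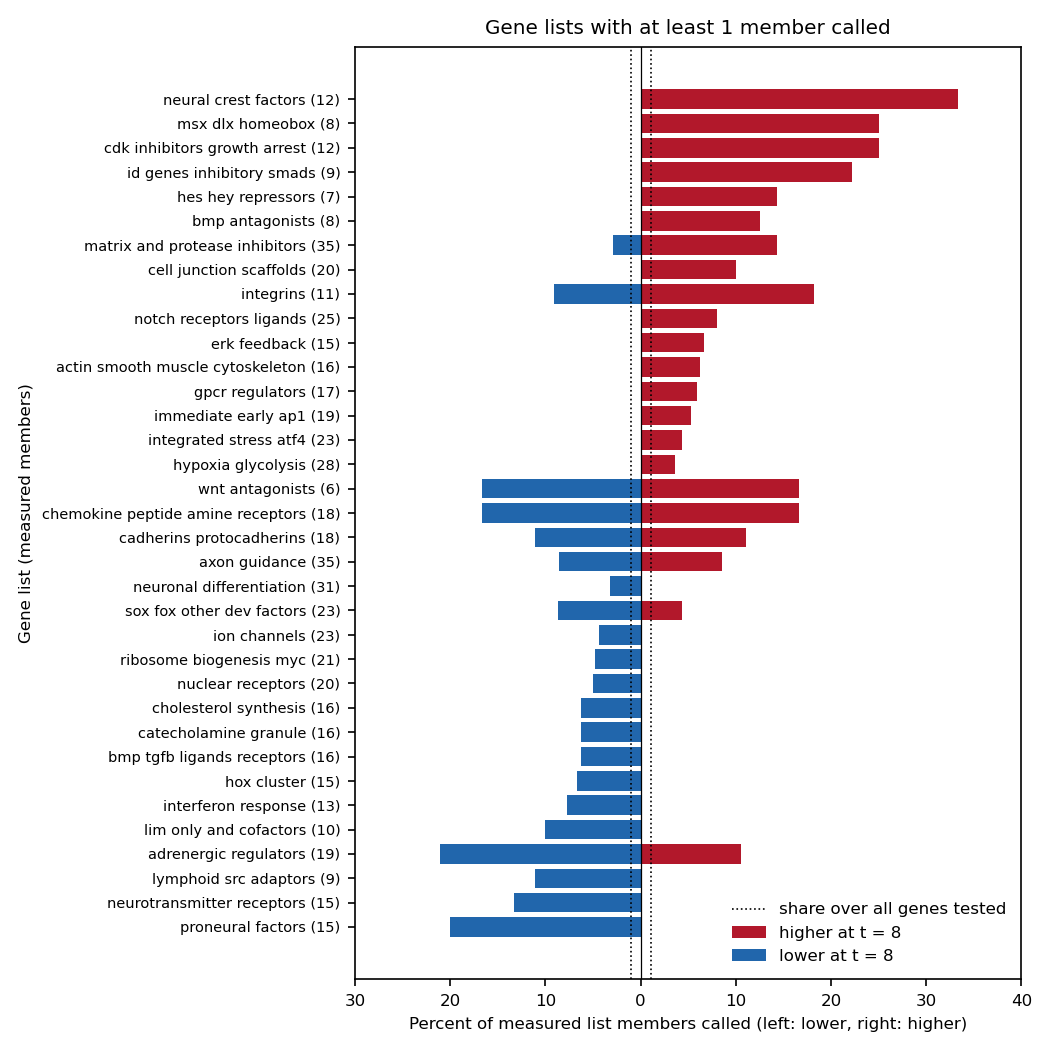
Percent of the measured members of each gene list that were called higher or lower at t = 8 against t = 0, with dotted lines at the share over all 12880 genes (1.1 percent higher and 0.994 percent lower). Neural crest factors have 4 of 12 members higher, and proneural factors 3 of 15 lower.

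Among cytoskeletal and signalling genes, RHOB, a small GTPase of actin and endosomes, read 265, 225 and 247 at t = 0 and 547, 573 and 560.4 at t = 8, and both groups were tight (log2 change 1.18, SE 0.09, adjusted p = 3.22e-05). SMTNL2, a smoothelin-like gene, read 37.3, 21.6 and 31.1 at t = 0 and 91.3, 113 and 122 at t = 8 (log2 change 1.71, adjusted p = 0.000586) and was the only rise among 16 measured actin and smooth muscle genes. MYOCD, the smooth muscle co-activator myocardin, read 3.4, 6.6 and 4 at t = 0 and 26.5, 31.2 and 22.3 at t = 8, with a log2 change of 1.70 (adjusted p = 0.00198) that ran from 0.68 to 2.32 with offsets of 32 and 1. SPRED2, an inhibitor of the ERK pathway, read 227, 219.8 and 229 at t = 0 and 407, 415 and 379 at t = 8 (log2 change 0.81, adjusted p = 0.000313), 1 rise among 15 measured ERK feedback genes. RGS3, which shuts off G protein signals, read 102, 96.1 and 85.5 at t = 0 and 209, 177 and 186 at t = 8 (log2 change 0.98, adjusted p = 7.44e-05), 1 of 17 such regulators. LIX1, which is on none of the lists, read 14.9, 11 and 14.6 at t = 0 and 35.9, 50.2 and 58.7 at t = 8 (log2 change 1.50, adjusted p = 0.00081). As in every called gene, the t = 8 and t = 0 signals of this group did not overlap.

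Among the remaining large falls, PRSS12, the secreted protease neurotrypsin, read 685, 609.7 and 549 at t = 0 and 261, 266 and 288 at t = 8 (log2 change -1.16, SE 0.10, adjusted p = 4.19e-05). PAG1, a membrane adaptor that recruits the kinase Csk, read 257, 307 and 246 at t = 0 and 108, 117 and 101 at t = 8 (log2 change -1.28, adjusted p = 9e-05), and VAV3 read 204, 208 and 234 at t = 0 and 92.7, 114 and 107 at t = 8 (log2 change -1.01, adjusted p = 0.000189). In these 3 genes the lowest t = 0 signal was 1.91-fold, 2.11-fold and 1.79-fold above the highest t = 8 signal. PLSCR1, a phospholipid scramblase, read 952, 869 and 935 at t = 0 and 439, 519.6 and 495 at t = 8, a fall (log2 change -0.92, adjusted p = 0.000135). The orphan nuclear receptor gene ESRRG read 118, 74.1 and 107 at t = 0 and 31.1, 39.9 and 41.1 at t = 8 (log2 change -1.29, adjusted p = 0.00198) and was the only call among 20 measured nuclear receptors. NWD2 and GREB1L fell by 0.99 and 0.99 (adjusted p = 0.000501 and 0.000512). SPDEF fell by 1.50 (adjusted p = 0.00253) on the probe set used, whereas its other kept probe sets read 1.02, 0.02 and 0.43.

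Lists of stress genes held 0 or 1 call each, where 2.1 percent of all genes were called. None of 16 measured unfolded protein response genes, 17 p53 targets, 17 apoptosis genes, 17 heat shock genes, 34 mitochondrial translation genes or 11 housekeeping genes was called by limma. At an unadjusted p under 0.05 these lists held 0, 0, 1, 2, 3 and 0 genes in that order, again beside 9.9 percent over all genes. The heat shock gene HSPH1 came closest (log2 difference 0.34, adjusted p = 0.079). Single rises were found of DDIT4, an inhibitor of mTORC1 (log2 change 0.77, adjusted p = 0.0118), among 23 integrated stress response genes, of NDRG1 (log2 change 0.87, adjusted p = 0.00476) among 28 hypoxia and glycolysis genes, and of KLF10 (log2 change 0.60, adjusted p = 0.00403) among 19 immediate early genes. Over all 50 lists, 13 held no called member, and 75 of the 791 measured list genes were called (9.48 percent, against 2.1 percent of all genes tested). Since the lists were drawn up with earlier results of these data known, that share is a description. The call of DDIT4 was lost without t = 8 replicate 1 (adjusted p = 0.0532).

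Marker lists of cell types were set beside these changes. The 11 measured neuroblast markers summed to signals of 13396 to 14342 at t = 0 and 12603 to 13348 at t = 8, and 1 of them, PHOX2A, was called, as higher. At an unadjusted p under 0.05 in limma they held 5, 2 higher and 3 lower, where 9.9 percent of all genes lay under it. Their median log2 difference was -0.10. The 11 measured fibroblast markers summed to 6036 to 7085 at t = 0 and 6680 to 7656 at t = 8, and 1, COL1A1, was called, as higher. At an unadjusted p under 0.05 they held 3, 2 higher and 1 lower, with a median of 0.06. Only 2 of 10 Schwann cell markers, 2 of 9 epithelial markers and 3 of 11 blood and endothelial markers were measured, with 0 limma calls and, at an unadjusted p under 0.05, only KDR. Their sums were 134 to 182 and 175 to 223 (Schwann), 28.6 to 60.4 and 35.6 to 52.3 (epithelial), and 67.4 to 69 and 71.8 to 104 (blood and endothelial) at t = 0 and t = 8. S100B, SOX10, EPCAM, PTPRC and CDH5 were among those below the filter on low signals. The part of other cell types in the early changes was not tested.

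The RefSeq promoters of the called genes (GRCh38.p14, 250 bases before to 50 after the start) were searched for motifs on both strands, first for TAATTG, the core that MSX homeodomains are known to bind. Of the 109 higher genes with a promoter in the table, 5 held it (4.59 percent), as did 4 of 103 lower genes (3.88 percent) and 4.2 percent of the 10428 tested genes with a promoter. The share among called genes thus lay near that of all promoters. The motif GTGGGAA, the core known for the Notch effector RBPJ, stood in 1 of the higher (0.917 percent), 8 of the lower (7.77 percent) and 5.9 percent of all tested promoters. The E-box CANNTG, which basic helix-loop-helix factors bind, stood in 52.3, 66 and 60.2 percent. Stretches of 4 promoters that hold the MSX core are shown, from 2 genes that rose and 2 that fell, with the core in capitals as it reads along the gene's strand (TAATTG or, on the other strand, CAATTA). The 4 were chosen after their values were seen.
FAM43A: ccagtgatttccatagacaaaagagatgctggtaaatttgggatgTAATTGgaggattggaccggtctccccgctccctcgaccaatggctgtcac
PNRC1: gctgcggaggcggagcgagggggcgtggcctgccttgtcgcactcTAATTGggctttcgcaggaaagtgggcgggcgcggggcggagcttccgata
NHLH2: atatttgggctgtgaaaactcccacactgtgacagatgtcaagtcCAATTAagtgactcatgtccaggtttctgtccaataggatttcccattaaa
ROBO1: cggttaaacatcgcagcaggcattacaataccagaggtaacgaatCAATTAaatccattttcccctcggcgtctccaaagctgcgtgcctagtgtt
These lie at chr3:194685650-194685745, plus strand; chr6:89080624-89080719, plus strand; chr1:115841200-115841295, minus strand; and chr3:79768100-79768195, minus strand. The first base of the core stands 188, 82, 124 and 152 bases before the start in that order. FAM43A read 171, 190.0 and 181 at t = 0 and 378, 371 and 326 at t = 8 (log2 change 0.97, adjusted p = 0.000254). PNRC1, a nuclear receptor coregulator, read 126, 105 and 148 at t = 0 and 202, 233 and 277 at t = 8 (log2 change 0.89, adjusted p = 0.0291). With 1 array left out, of 6 cases, the call was lost for PNRC1 in 4 (adjusted p up to 0.116, without t = 0 replicate 2). The falls of NHLH2 and ROBO1 were -0.49 and -0.43. A match is a run of letters and does not show that MSX1 binds there.

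Many early changes were found again when induced and control cells were compared at t = 48, where 8.55 percent of all genes were called. That contrast is matched for time, and its group means share no array with t = 8 against t = 0. Doxycycline itself and MSX1 cannot be told apart in it either, as no cells without the construct were analysed. Both contrasts take the spread of each gene from the same fit of 15 arrays, so a gene with little scatter passes more easily in both. The shares over all genes given below do not allow for that. Of the 142 genes higher at t = 8, 105 were also higher in that comparison (73.9 percent, where 5.26 percent of all genes tested were), 1 was lower and 36 were not called. The 105 made up 15.5 percent of the 678 genes higher at t = 48. Of the 128 genes lower at t = 8, 62 were also lower (48.4 percent, where 3.28 percent of all genes were), 8 were higher and 58 were not called, and the 62 made up 14.7 percent of the 423. The median log2 difference at t = 48 was 0.67 for the early higher and -0.35 for the early lower genes. Whether rises and falls differ in this share was not tested. Of the 270, 134 of the higher and 106 of the lower genes kept their sign.

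**Figure D4:**
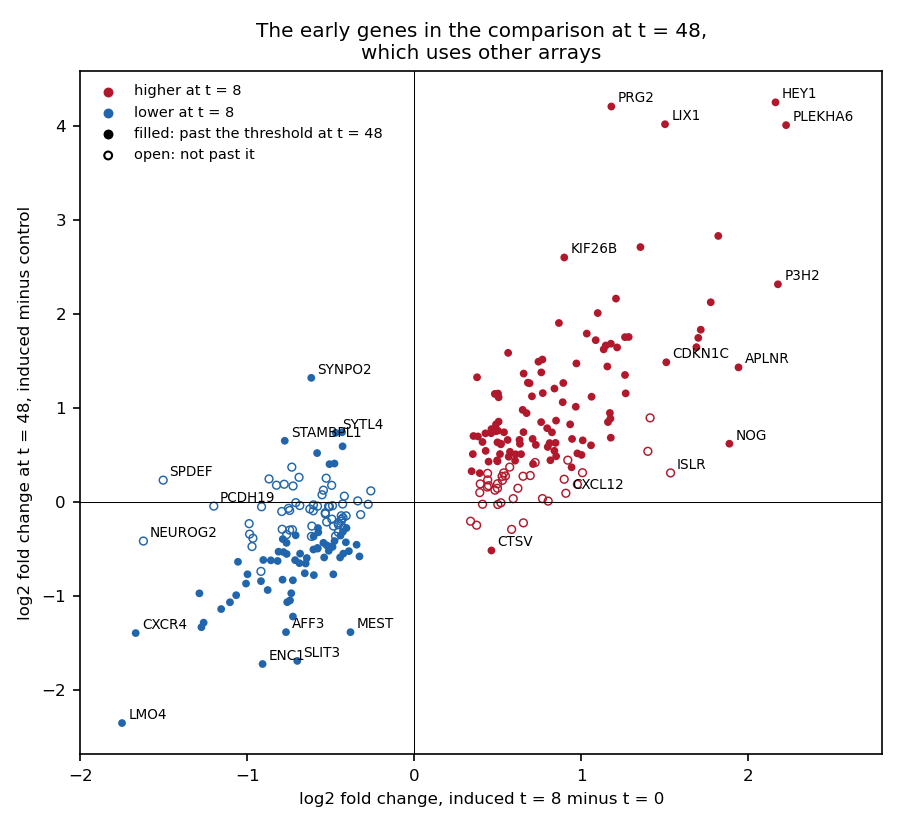
Log2 fold change of the 270 early genes at t = 8 against t = 0 (x axis) and between induced and control cells at t = 48 (y axis), 1 point a gene, filled where the later difference passed the threshold. Of the filled points, 167 lie in the quadrants of equal sign and 9 in those of opposite sign.

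The later levels of single genes fell into several courses. All comparisons with t = 0 share the t = 0 arrays, so only the levels are given (mean ± SD, n = 3). HEY1 read higher at each later time, from 224 ± 42.9 at t = 8 to 414 ± 71.8 at t = 24, 871 ± 110 in induced and 40.5 ± 2.64 in control cells at t = 48. LIX1 reached 277 ± 32.8 at t = 24, 303 ± 14.1 in induced and 14.2 ± 4.6 in control cells at t = 48. LMO4 stayed low, with 289 ± 34.1 at t = 24, 200.0 ± 44.1 in induced and 1026 ± 21.4 in control cells at t = 48, as did CXCR4, with 51.1 ± 2.77 at t = 24, 54.1 ± 11.6 in induced and 149 ± 10.8 in control cells at t = 48. In these 4 genes the control cells at t = 48 stood near the t = 0 signals, and the log2 differences between induced and control cells were 4.25, 4.02, -2.35 and -1.39. PRG2 had an early change of 1.18 and later read 256 ± 40 at t = 24, 1123 ± 34.8 in induced and 55.9 ± 4.1 in control cells at t = 48, a matched difference of 4.21.

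Other early genes were at their highest or lowest before t = 48. NOG read 22.9 ± 2.59 at t = 8 and 60.6 ± 15 at t = 24, 17.8 ± 2.95 in induced and 9.73 ± 1.5 in control cells at t = 48. SNAI2 read 1057 ± 101 at t = 8 and 1044 ± 35.9 at t = 24, 398 ± 42.8 in induced and 219.7 ± 40.7 in control cells at t = 48. RHOB followed with 560.2 ± 12.7 at t = 8 and 551 ± 38.5 at t = 24, 275 ± 3.43 in induced and 169.8 ± 18.2 in control cells at t = 48. The control cells at t = 48 also read lower than t = 0 for SNAI2 and RHOB, so that the induced cells remained above the matched controls (log2 differences 0.85 and 0.69, adjusted p = 0.00126 and 0.00046). CXCL12 read 397 ± 35.5 at t = 8 and 316 ± 11.5 at t = 24, 251 ± 7.94 in induced and 235 ± 9.49 in control cells at t = 48, and its matched difference of 0.09 did not pass (adjusted p = 0.494). NEUROG2 read 16.9 ± 11.7 at t = 8 and 26.7 ± 4.01 at t = 24, 72.1 ± 11.1 in induced and 97.5 ± 10.8 in control cells at t = 48. NWD2 read 107 ± 11.6 at t = 8 and 119 ± 4.16 at t = 24, 270.2 ± 15 in induced and 320.5 ± 55.7 in control cells at t = 48, and PCDH19 29.3 ± 8.33 and 42.3 ± 4.36 at t = 24, 67.6 ± 6.49 in induced and 69.6 ± 2.85 in control cells at t = 48. The matched differences of the last 2 were -0.23 and -0.04 and did not pass (adjusted p = 0.245 and 0.904).

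**Figure D5:**
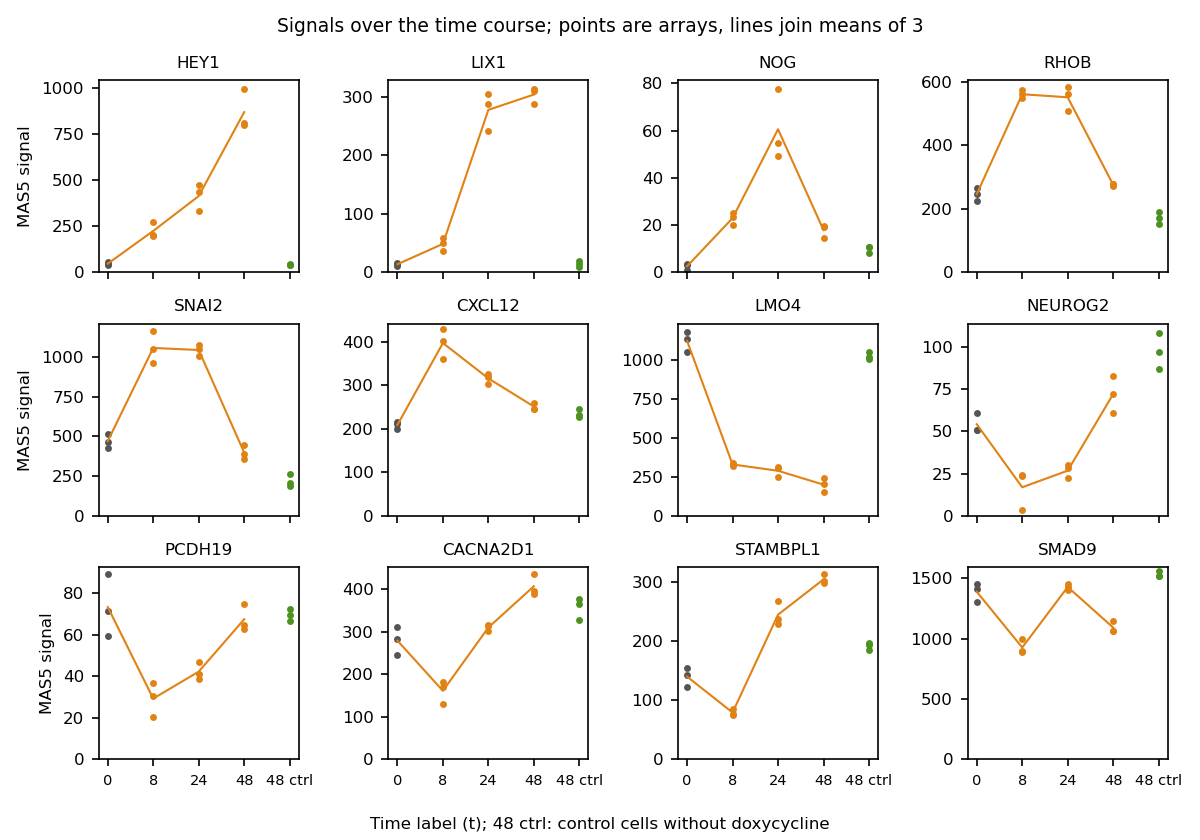
MAS5 signal of 12 early genes at t = 0 and in induced cells at t = 8, 24 and 48, with control cells at t = 48, as single arrays and group means. HEY1 and LIX1 climb to t = 48, SNAI2 and RHOB are back near their t = 0 signals by then, and STAMBPL1 drops at t = 8 and rises above its t = 0 signals afterwards.

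In 9 genes the early and the matched later call had opposite signs, a count that fell to between 3 and 5 when any 1 of the 6 arrays was left out. STAMBPL1, a deubiquitinase, first read 144, 122 and 155 at t = 0 and 75.1, 77.5 and 85.6 at t = 8, a fall (log2 change -0.78, adjusted p = 0.000667) and later read 245 ± 20.2 at t = 24, 305 ± 7.55 in induced and 192 ± 6.04 in control cells at t = 48 (matched log2 difference 0.65). SYNPO2, an actin-binding gene, read 85.1, 59.4 and 72.4 at t = 0 and 42.1, 45 and 47.6 at t = 8 (-0.62) and later 127 ± 8.94 at t = 24, 174 ± 4.21 in induced and 66.5 ± 0.379 in control cells at t = 48 (1.32). The other early falls with a later rise were BPHL, CFAP95, IGSF11, PLCL1, POU3F1 and SYTL4, with matched differences of 0.40, 0.74, 0.59, 0.52, 0.41 and 0.74. The cathepsin gene CTSV alone rose early (log2 change 0.46, adjusted p = 0.0333) and was lower later (-0.52). With single arrays left out, early calls were lost, of 6 cases each, for CTSV in 6 (adjusted p up to 0.124, without t = 8 replicate 1), CFAP95 in 6 (adjusted p up to 0.149, without t = 0 replicate 3), BPHL in 5 (adjusted p up to 0.125, without t = 0 replicate 2), PLCL1 in 5 (adjusted p up to 0.141, without t = 0 replicate 3), POU3F1 in 5 (adjusted p up to 0.156, without t = 8 replicate 1), IGSF11 in 2 (adjusted p up to 0.0534, without t = 8 replicate 2) and SYTL4 in 2 (adjusted p up to 0.0666, without t = 0 replicate 3), while those of STAMBPL1 and SYNPO2 were kept. Such opposite calls were 6.25 percent of the early falls, where 5.26 percent of all genes were higher at t = 48, so their share lay near the background. CACNA2D1, a calcium channel subunit, first read 311, 244 and 283 at t = 0 and 131, 182 and 171 at t = 8, a fall (log2 change -0.78, adjusted p = 0.0038) and read 310.1 ± 7.99 at t = 24, 407 ± 25.8 in induced and 356 ± 25.4 in control cells at t = 48.

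Some early changes were also seen in cells grown without doxycycline. Their number is not given here, and the genes below are examples. DLX5 read 62.5 ± 7.70 at t = 0, 105 ± 9.76 at t = 8, 152 ± 9.48 in induced and 93.4 ± 6.24 in control cells at t = 48 (mean ± SD, n = 3). TNR, which encodes the matrix protein tenascin R, read 2.8, 7.6 and 4.5 at t = 0 and 28.6, 10.8 and 29.1 at t = 8 (log2 change 1.41, adjusted p = 0.02; 0.55 to 1.96 with offsets of 32 and 1), and reached 46.3 ± 4.88 at t = 24, 71.6 ± 14.5 in induced and 36.1 ± 7.97 in control cells at t = 48. Its mean in untreated cells at t = 48 was thus above that of t = 8, and the matched difference of 0.90 did not pass (adjusted p = 0.0689). The early TNR call was lost without 4 of the 6 single arrays (adjusted p up to 0.0907, without t = 8 replicate 1). SPRED2 and MAML3 were higher in control cells at t = 48 than at t = 0 by 0.53 and 0.52 (adjusted p = 0.013 and 0.0042), and in both the induced cells were higher still (matched differences 0.44 and 0.78). NOG was likewise higher in control cells at t = 48 than at t = 0 by 0.97 (adjusted p = 0.023), with a matched difference of 0.62 (adjusted p = 0.0458). Over all genes, 109 (0.846 percent) were called between control cells at t = 48 and t = 0.

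Of the 110 named genes that passed the threshold, 31 kept their call in every alternative analysis run, 65 kept it without each of the 6 arrays in turn, and 35 were called from the 6 arrays alone. Those kept throughout include HEY1, NOG, CDKN1C, TIMP3, CGNL1, SNAI2, SOX9, WNT5A, BAMBI, CDH11, COL13A1, RHOB, CXCL12, LIX1 and HAND1 among the rises and LMO4, CXCR4, ADRA2A, CHRNA3, PAG1, PRSS12, VAV3 and PLSCR1 among the falls. NOG entered only 22 of the 23 analyses, because a filter requiring a signal of 50 on 3 arrays removed it. In the fit of the 6 arrays, PLEKHA6, P3H2, APLNR, SFRP1, NEUROG2 and EBF3 had adjusted p values of 0.0814, 0.0556, 0.119, 0.0761, 0.351 and 0.0757 and lost their calls. In the 23 alternative analyses run gene by gene, each with 1 value a gene, no named gene changed sign. Of the named genes, 9 had another kept probe set of the opposite sign, 5 of them among those called (CDH11, ETS1, RRP12, SPDEF and TCF7L2).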

How the data were processed

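RNA of the 15 samples was hybridised to Affymetrix arrays, 1 array a sample. The deposited values are linear-scale intensities that the authors computed with MAS5 and GCOS according to the submitters' processing notes (per the labels, no version or settings), and each array's trimmed mean was 100.01. Scaling of this kind does not even out how low signals spread. An offset of 5.16, the mean lower quartile over the arrays, was added before log2. Probe sets reaching the array median on at least 3 arrays were kept, and the brightest kept 1 represented each gene (12880 genes). Another 5640 kept probe sets had no single symbol, and 24 of them were called in a fit over all probe sets. Groups were compared with limma 3.58.1 under R 4.3.3 (functions lmFit and eBayes, 15 arrays as 5 group means, two-sided, Benjamini-Hochberg over all genes, threshold 0.05). The number of arrays limits the precision. The 50 gene lists and the members were chosen with earlier results of these data known. Genes named were the 25 largest rises and 25 largest falls whose groups did not overlap, MSX1 and MYCN, up to 5 called members of each list (or 2 uncalled), genes with opposite calls at t = 48, and the 10 called genes with the highest signal; SERPINH1 and LPAR1 complete the counts of their lists, and others are marked as picked later. No set test was run. Alternatives covered the offset, scaling, filter, probe set choice, variance model, threshold, arrays in the fit and the replicate block. No pair of arrays held identical values. Symbols came from the platform annotation, promoters from RefSeq (GRCh38.p14). Some genes are not reported here.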

Additional observations from a re-analysis of the deposited data

How the results depend on the processing

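No named gene changed sign in the 23 analyses run gene by gene, though 9 named genes had another kept probe set of opposite sign. A count has no sign to reverse. Of the counts, shares and MSX1 changes over the alternatives, 22 were weaker and 14 moved beyond a set margin, and 149 did not. Against 270 genes (142 higher, 128 lower), the fit of the 6 arrays alone gave 52 (32 higher, 20 lower), with 17 gene lists holding a called member in place of 37. It has fewer degrees of freedom. A threshold of 0.01 gave 131 (71 and 60), of which 82 had the same call at matched t = 48, in place of 167. Without a filter on low signals, 93 genes were higher and 103 had the same call at t = 48. Of the early genes, 61.9 percent had that call, and 55.5 percent when every probe set was tested on its own, or 55.6 percent once 2 arrays whose hybridisation controls were weak had been left out. Opposite calls at t = 48 numbered 9, and 4 without the filter and with every probe set on its own, 2 at the threshold of 0.01 and 3 to 5 with 1 array left out. The cause was not tested. Leaving out 1 array at a time gave 173 to 194 genes, 87 to 108 higher and 74 to 94 lower, 115 to 128 with the same call at t = 48 (63.8 to 67.8 percent), 29 to 33 lists, and an MSX1 change of 0.42 to 0.61. Added after seeing the data, leaving out t = 0 replicate 2 with t = 8 replicate 1, the arrays with the highest lower quartiles, gave 130 genes (72 and 58), 95 of them with the same call at t = 48 (73.1 percent) and 2 with the opposite one, and the lower quartile as a covariate gave 312 genes. The replicate numbers did not pair the arrays (correlations of same-numbered deviations -0.19, -0.0474 and 0.119). With the replicate number as a block, 211 genes were called, 201 of them among the 270, and the MSX1 change was 0.51. Calls made in few alternatives were those of MSX2, MARCHF4, HOXB4, GABRA5, CFAP95, POU3F1 and PYCARD-AS1; 15 named genes lost their call in at least 50 percent of the alternatives.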
